A study of Mus musculus with 6 samples.

Results

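RNA sequencing of mouse pancreatic islets was examined for 10 genes of the blood vessel wall: the leukocyte adhesion molecules Sele, Selp, Vcam1, Icam1 and Icam2, and the endothelial reference genes Pecam1, Cdh5, Plvap, Emcn and Vwf. They were chosen by name, with the read counts of this same contrast already known, and all 10 were found by symbol among the 24421 genes of the deposited count table. There were 3 libraries of islets labelled HF_KO, a β cell-specific knockout on the C57BL/6J background with a floxed allele of Dhps, the gene of deoxyhypusine synthase, and MIP1-CreERT, a Cre recombinase fused to an estrogen receptor part and driven by the mouse insulin promoter. They were set against 3 libraries of islets labelled HF_CONT, controls on the same background. The labels did not say whether the controls carried Cre or received tamoxifen, what the prefix HF stands for, the age of the mice, or whether each library came from a separate animal, so the spread between libraries may be partly technical. Endothelial cells are not the cells in which the insulin promoter drives Cre.

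Endothelial cells line the capillaries that thread each islet. When inflammatory signals reach them they place selectins on their surface, which slow passing leukocytes into rolling, and then immunoglobulin-family receptors such as VCAM-1 and ICAM-1, which leukocyte integrins grip to stop the cell before it crosses the wall. Resting endothelium carries little E-selectin, keeps P-selectin with von Willebrand factor in storage granules called Weibel-Palade bodies, and steadily makes junction and surface proteins such as PECAM-1, VE-cadherin, PLVAP and endomucin. The comparison here was of the messenger RNA of these genes in whole islets, where fewer cells of a type and less RNA per cell cannot be told apart.

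Counts assigned to genes ran from 21027737 to 23249895 per library. The targeted gene did not separate the groups: Dhps averaged 11.96 ± 0.689 CPM in HF_KO libraries and 12.6 ± 0.704 CPM in HF_CONT libraries (SD, n = 3 each). CPM is the count scaled to library size, here with edgeR's TMM factors. These counts cover the whole gene in whole islets, so they cannot show whether its floxed part was lost in β cells. Every direction below therefore belongs to the label of the library. The tissue label held, with the insulin genes Ins1 and Ins2 at 96908 and 290367 CPM in HF_KO libraries and 91075 and 306578 CPM in HF_CONT libraries. Endothelial RNA was present in all 6 libraries, as Plvap had between 3116 and 5968 counts and each of 18 further endothelial genes had counts in at least 1 library. Because of how the 10 genes were chosen, their fold changes are descriptions, and nothing is read from their count against the share of all genes.

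Of the 10 genes, 6 passed an adjusted p of 0.05 (edgeR quasi-likelihood, adjusted over the 13736 genes that entered the fit). All 6 were higher in HF_KO libraries. They were Sele, Selp, Vcam1, Icam1, Pecam1 and Vwf. Across all genes 6.76% passed in either direction, with 4.14% higher and 2.63% lower. In 7 of the 10 genes, the 6 named and Cdh5, the lowest HF_KO library lay above the highest HF_CONT library, which held for 16.9% of all genes. Without HF_KO replicate 1, Sele alone of the 10 was called, and 64 genes over the whole table against 929. Without HF_CONT replicate 2 there were 4 of the 10 (Sele, Selp, Pecam1 and Vwf) and 99 genes, and without HF_CONT replicate 3 there were 5 of the 10 and 216 genes. Without HF_KO replicate 3 the table gave 344 genes and all 6 kept their call.

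E-selectin (Sele), the cytokine-induced selectin of activated endothelium, was called with a fold close to that of Selp. Its counts were 222, 177 and 112 in HF_KO replicates 1, 2 and 3, against 28, 34 and 34 in HF_CONT replicates 1, 2 and 3. Scaled for depth, this was 9.77, 8.32 and 5.69 CPM in HF_KO libraries and 1.30, 1.42 and 1.34 CPM in HF_CONT libraries. The 3 controls lay almost on top of each other, though counts of 28 to 34 carry sizeable counting error. The HF_KO libraries spread, and the lowest of them was 4.01 times the highest control. This was a 5.84-fold difference, or 2.55 ± 0.26 on the log2 scale (SE; 95% interval 1.97 to 3.12). Sele was past the threshold under all 15 alternative settings tried, each single library left out included, with log2 fold changes between 2.05 and 2.73.

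P-selectin (Selp), the selectin stored in endothelial granules and in platelets, had 360, 227 and 161 counts in HF_KO replicates 1, 2 and 3, against 30, 91 and 33 in HF_CONT replicates 1, 2 and 3. Levels were 15.8, 10.7 and 8.18 CPM in HF_KO libraries and 1.39, 3.79 and 1.31 CPM in HF_CONT libraries. HF_CONT replicate 2 stood above the other controls and still lay below every HF_KO library. The log2 fold change was 2.42 ± 0.40 (SE), or 5.33-fold, and it was 2.12 without HF_KO replicate 1, where Selp no longer passed, and 3.09 without HF_CONT replicate 2. Selp shares 438 bp of exon with the predicted gene Gm16548, which averaged 0.667 counts per library.

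Sele and Selp lie 57.6 kb apart on mouse chromosome 1 (mm10), Sele from 164048234 to 164057677 and Selp from 164115264 to 164150026, both on the plus strand. Just beyond Selp, the coagulation factor gene F5 had 67, 122 and 108 counts in HF_KO libraries against 82, 105 and 102 in HF_CONT libraries, so its groups overlapped where those of Sele and Selp did not.

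Promoter windows are shown for the 3 called adhesion genes that had one in the set of RefSeq promoters used here. They are shown because short regulatory motifs near these starts are textbook features of cytokine-induced adhesion genes. That set (GRCm38.p6, the same build as mm10) held windows for 4 of the 10 genes, Sele, Selp, Icam1 and Emcn. Each window was of 300 bases, from 250 before to 50 after the annotated start. All 3 printed windows are on the plus strand, at chr1:164047984-164048283 for Sele, chr1:164115014-164115313 for Selp and chr9:21015690-21015989 for Icam1. Capitals mark matches, on either strand, to 5 patterns chosen after the sequences were seen: a broad κB pattern (GGG and CC with 5 bases of any kind between them), a narrow κB pattern (GGANNTTCC, which can overlap the broad one), both of the kind NF-κB factors bind, the TATA box TATAAA, the AP-1 pattern TGANTCA and the ATF pattern TGACNTCA.
Sele: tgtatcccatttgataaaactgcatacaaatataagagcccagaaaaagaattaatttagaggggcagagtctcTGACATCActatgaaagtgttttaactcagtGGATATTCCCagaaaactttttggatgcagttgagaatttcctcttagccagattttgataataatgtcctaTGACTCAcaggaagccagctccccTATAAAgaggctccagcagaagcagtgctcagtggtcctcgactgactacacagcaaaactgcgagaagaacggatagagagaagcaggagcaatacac
Selp: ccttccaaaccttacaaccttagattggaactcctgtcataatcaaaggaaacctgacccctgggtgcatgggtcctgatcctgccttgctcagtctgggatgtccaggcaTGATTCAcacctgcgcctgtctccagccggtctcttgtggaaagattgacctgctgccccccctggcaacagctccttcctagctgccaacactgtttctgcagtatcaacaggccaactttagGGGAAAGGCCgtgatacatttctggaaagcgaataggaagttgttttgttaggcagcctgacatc
Icam1: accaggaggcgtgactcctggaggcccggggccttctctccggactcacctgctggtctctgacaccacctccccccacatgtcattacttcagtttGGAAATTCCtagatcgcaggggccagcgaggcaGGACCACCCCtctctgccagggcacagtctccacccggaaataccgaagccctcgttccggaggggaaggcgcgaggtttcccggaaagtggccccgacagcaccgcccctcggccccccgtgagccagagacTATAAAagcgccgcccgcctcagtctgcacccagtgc
Sele held 1 match to each of the 5 patterns, with GGATATTCCC at position −145 from the start matching both κB patterns. Selp held 1 match to the broad κB pattern, at −15, and 1 to TGANTCA, at −139. Icam1 held GGAAATTCC at −153, 1 match to the broad κB pattern and a TATAAA at 14 past the annotated start. The Emcn window held 0 matches to all 5. It was the only window of a gene that was not called, so called and uncalled genes cannot be compared on these patterns. Among 32851 RefSeq promoter windows of the same length, 50.8% held the broad κB pattern, 4.26% GGANNTTCC, 13.6% TATAAA, 7.81% TGANTCA and 8.83% TGACNTCA. A match is only a match of letters, and no binding was measured here.

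**Figure D1:**
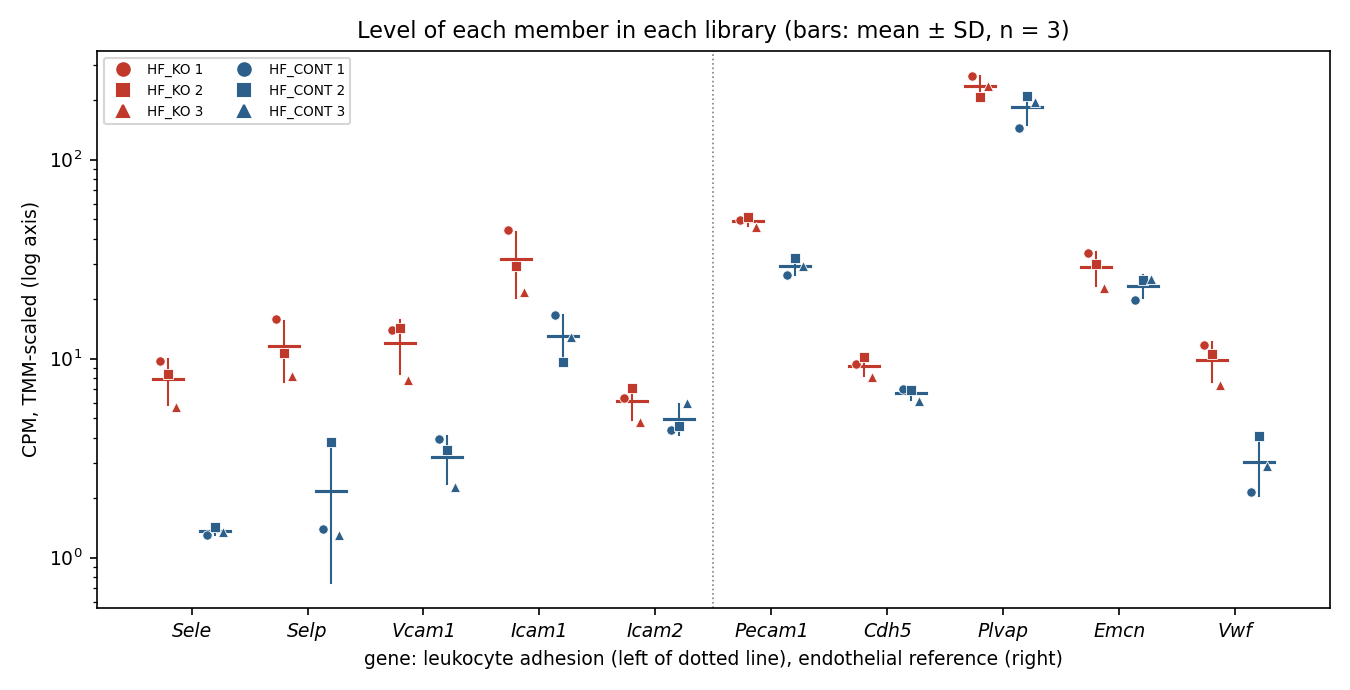
Level of each of the 10 genes in each library, in TMM-scaled CPM on a log axis, with HF_KO libraries left of HF_CONT libraries for each gene; horizontal bars are means and vertical bars SD over 3 libraries. Sele runs from 5.69 to 9.77 CPM in HF_KO libraries and from 1.30 to 1.42 CPM in HF_CONT libraries, while Icam2, Plvap and Emcn overlap between groups.

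Among the immunoglobulin-family receptors, Vcam1 and Icam1 were higher in HF_KO libraries and Icam2 was not called. Vcam1, which binds the α4 integrins of lymphocytes and monocytes, had 317, 302 and 153 counts in HF_KO replicates 1, 2 and 3, against 85, 83 and 57 in HF_CONT replicates 1, 2 and 3. Replicate 3 was the lowest library within each label, and the lowest HF_KO library (7.77 CPM) was still 1.98 times the highest control (3.93 CPM). The log2 fold change was 1.90 ± 0.28 (SE), a 3.74-fold difference. It was 1.78 without HF_KO replicate 1 and 1.95 without HF_CONT replicate 2, and Vcam1 did not pass in either.

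Icam1, the ligand of the β2 integrins LFA-1 and Mac-1, was the most abundant of the 5 adhesion genes. It had 1011, 623 and 426 counts in HF_KO replicates 1, 2 and 3 and 359, 231 and 323 counts in HF_CONT replicates 1, 2 and 3. The groups did not overlap in CPM, although HF_KO replicate 3 at 21.6 CPM was close to HF_CONT replicate 1 at 16.6 CPM. The log2 fold change was 1.29 ± 0.26 (SE), or 2.45-fold. Icam1 lost its call without HF_KO replicate 1 (log2 fold change 0.97), without HF_CONT replicate 2 (1.10) and without HF_CONT replicate 3 (1.27).

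Icam2, which endothelium and platelets carry constitutively and which also binds LFA-1, had 144, 151 and 95 counts in HF_KO libraries and 95, 110 and 152 counts in HF_CONT libraries. The groups overlapped, with HF_CONT replicate 3 above HF_KO replicate 3. On the log2 scale it differed by 0.28 ± 0.22 (SE), and the 95% interval, −0.20 to 0.77, takes in differences in either direction. The adhesion genes Sele, Selp, Vcam1 and Icam1 were all called, and the constitutive Icam2 was not. Whether Icam2 differed from the others was not tested directly.

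Of the 5 endothelial reference genes, Pecam1 and Vwf were called and 3 were not. Pecam1, a junction protein of endothelium, platelets and some leukocytes, had 1128, 1091 and 902 counts in HF_KO libraries, against 568, 770 and 739 in HF_CONT libraries. These were 49.6, 51.3 and 45.8 CPM in HF_KO libraries and 26.3, 32.1 and 29.2 CPM in HF_CONT libraries. Both groups were tight, with a coefficient of variation of 5.73% in HF_KO libraries and 9.93% in HF_CONT libraries, and they did not overlap. The log2 fold change was 0.74 ± 0.11 (SE), or 1.67-fold; Pecam1 missed the threshold without HF_KO replicate 1, at a log2 fold change of 0.73.

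Vwf, von Willebrand factor, which tethers platelets and shares its storage granules with P-selectin, had 267, 224 and 145 counts in HF_KO libraries and 46, 98 and 73 counts in HF_CONT libraries. The groups did not overlap, at 11.7, 10.5 and 7.36 CPM in HF_KO libraries and 2.13, 4.08 and 2.89 CPM in HF_CONT libraries. The log2 fold change was 1.70 ± 0.26 (SE), or 3.25-fold, and 1.55 without HF_KO replicate 1, where it was not called. Its log2 fold change lay between those of Vcam1 (1.90) and Icam1 (1.29), and whether it differed from those of the other reference genes was not tested.

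Cdh5, Plvap and Emcn were not called. Cdh5, the VE-cadherin of endothelial junctions, had 213, 217 and 159 counts in HF_KO libraries and 152, 166 and 154 in HF_CONT libraries, with a log2 fold change of 0.47 ± 0.16 (SE, 95% interval 0.11 to 0.82). Its CPM values did not overlap, at 8.08 or more in HF_KO libraries and 7.03 or less in HF_CONT libraries. Plvap, which forms the diaphragms of fenestrated capillaries such as those of islets, had 5968, 4388 and 4620 counts in HF_KO libraries and 3116, 5009 and 4946 in HF_CONT libraries. HF_CONT replicate 1 was the low library there, and the log2 fold change was 0.36 ± 0.15 (SE, 95% interval 0.02 to 0.70). Emcn, endomucin, a surface sialomucin of capillaries and veins, had 770, 635 and 446 counts in HF_KO libraries and 424, 599 and 633 in HF_CONT libraries. Its log2 fold change was 0.31 ± 0.16 (SE, 95% interval −0.04 to 0.66), and HF_KO replicate 3 lay inside the control range.

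The libraries kept a similar order across the genes. HF_KO replicate 3 was the lowest HF_KO library for 9 of the 10 genes, Plvap being the exception, and HF_KO replicate 1 was the highest of all 6 libraries for 6 of the 10. HF_CONT replicate 1 was the lowest of all 6 for Sele, Icam2, Pecam1, Plvap, Emcn and Vwf. Over the 6 libraries, log2 CPM of Sele had a Pearson r of 0.98 with Pecam1, 0.96 with Vcam1 and Vwf and 0.94 with Selp. It was 0.93 with Cdh5, which was not called, and 0.91 with Icam1. With Plvap and Emcn it was 0.71, and with Icam2 0.63. These correlations describe 6 libraries that share the split by label.

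Per length, the order of the genes was led by Plvap in both groups. In TPM (counts divided by exon length, then scaled to the library's sum), HF_KO libraries averaged 117 ± 13.96 for Plvap, 19.95 ± 4.73 for Emcn, 14.8 ± 1.66 for Pecam1, 12.7 ± 4.94 for Icam1 and 5.40 ± 1.30 for Icam2 (SD, n = 3). Below these came Vcam1 at 3.59 ± 1.24, Selp at 3.41 ± 1.24, Sele at 2.76 ± 0.820, Cdh5 at 2.34 ± 0.397 and Vwf at 1.13 ± 0.305 TPM. From Vcam1 to Cdh5, neighbours in that order differed by less than the larger of their SDs, as did Pecam1 and Icam1. In HF_CONT libraries Plvap averaged 97.4 ± 26.9, Emcn 17.02 ± 4.10, Pecam1 9.34 ± 1.73, Icam1 5.37 ± 1.18 and Icam2 4.71 ± 1.42 TPM, and the last pair differed by less than their SD. Below these came Cdh5 at 1.77 ± 0.109, Vcam1 at 0.983 ± 0.163, Selp at 0.665 ± 0.435, Sele at 0.494 ± 0.0714 and Vwf at 0.368 ± 0.134 TPM. Selp lay within its SD of both neighbours, and Sele and Vwf differed by less than the SD of Vwf. Cdh5 thus ranked above Vcam1, Selp and Sele in the controls and below them by mean in HF_KO libraries.

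Endothelial RNA as such was somewhat higher in HF_KO libraries. The 18 further endothelial genes summed to 433, 373 and 363 CPM in HF_KO libraries and 270, 336 and 326 CPM in HF_CONT libraries, so the groups did not overlap but HF_KO replicate 3 and HF_CONT replicate 2 were close. The difference was 0.33 on the log2 scale (exact two-sided permutation p = 0.1, the smallest that 3 against 3 libraries allow; p = 0.3 with plain CPM in place of TMM scaling, at 0.27). Of 17 tested, 5 rose, 0 fell and 12 were not called, with a median log2 fold change of 0.47 against 0.01 over all genes tested. Those with the smallest p were the endothelial transcription factor Sox18 (0.88 ± 0.16, SE), the sialomucin Cd34 (0.67 ± 0.13), the TGF-β co-receptor Eng (0.54 ± 0.11) and the angiopoietin receptor Tek (0.54 ± 0.13). Of these 5 calls, 0 held without HF_KO replicate 1, HF_CONT replicate 2 or HF_CONT replicate 3. The VEGF receptors Kdr (−0.02 ± 0.13) and Flt1 (−0.01 ± 0.14), named after their values were seen, were not called.

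Set against endothelial RNA in the same library, the selectins, Vcam1 and Vwf stayed above their controls in every library. Per 100 counts of Pecam1 and Cdh5 together there were 16.6, 13.5 and 10.6 Sele counts in HF_KO libraries and 3.89, 3.63 and 3.81 in HF_CONT libraries. Selp gave 26.8, 17.4 and 15.2 in HF_KO libraries and 4.17, 9.72 and 3.70 in HF_CONT libraries. Vcam1 gave 23.6, 23.1 and 14.4 in HF_KO libraries and 11.8, 8.87 and 6.38 in HF_CONT libraries, and Vwf 19.9, 17.1 and 13.7 against 6.39, 10.5 and 8.17. None of these 4 overlapped between groups. Icam1 did, with 75.4, 47.6 and 40.2 in HF_KO libraries and 49.9, 24.7 and 36.2 in HF_CONT libraries. Icam2 and Emcn lay the other way without overlap: Icam2 gave 10.7, 11.5 and 8.95 in HF_KO libraries and 13.2, 11.8 and 17.0 in HF_CONT libraries, and Emcn 57.4, 48.5 and 42.04 in HF_KO libraries and 58.9, 64.0 and 70.9 in HF_CONT libraries. The share of all genes without overlap when set against Pecam1 and Cdh5 was not worked out. In TMM-scaled CPM it was 32.1% in either direction. Pecam1, itself called higher, supplied between 78.9 and 85.0 of each 100 Pecam1 and Cdh5 counts. As a log2 ratio to the endothelial list, Sele differed by 2.04 between HF_KO and HF_CONT libraries. In that ratio Icam2 and Emcn overlapped between groups, at differences of −0.20 and −0.18, so their separation above depends on the genes they were set against.

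**Figure D2:**
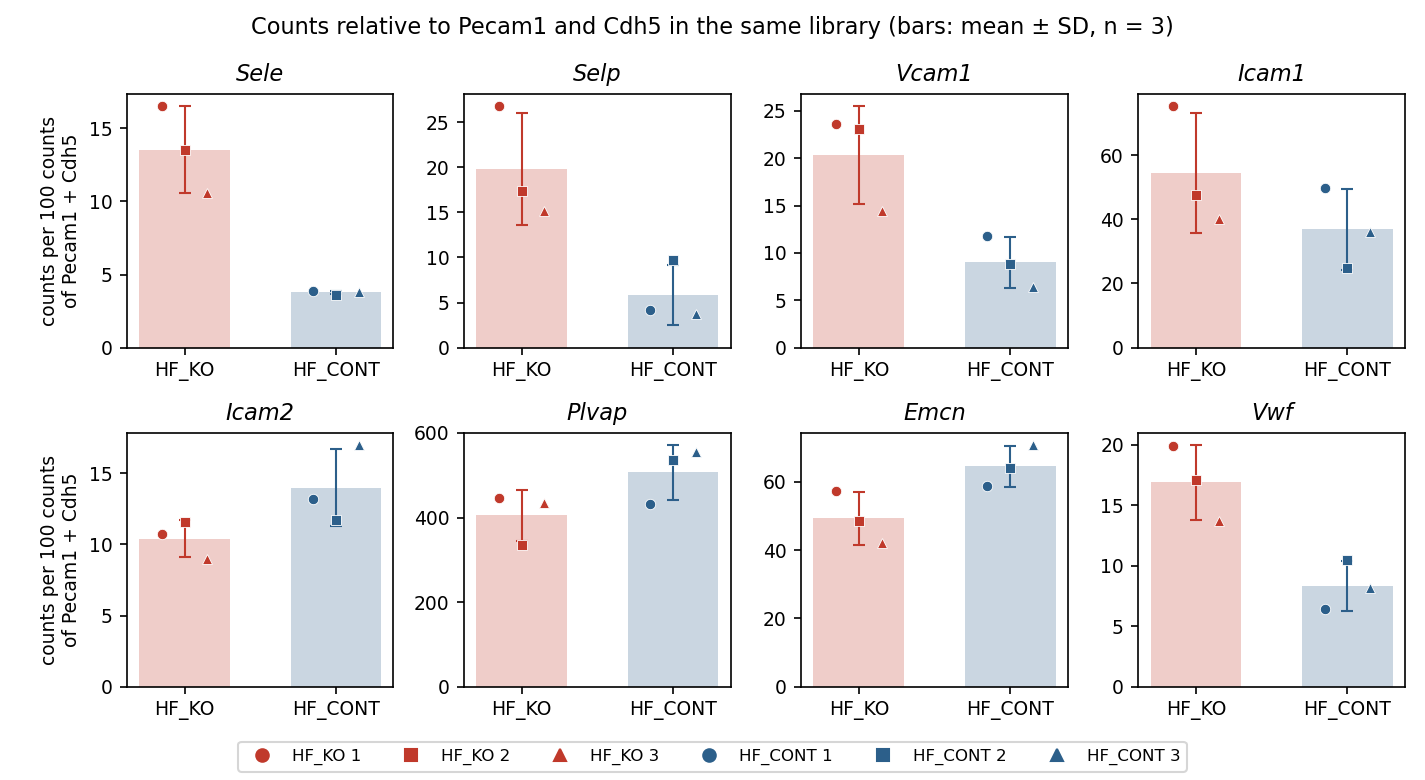
Counts of 8 genes per 100 counts of Pecam1 and Cdh5 in the same library, HF_KO left of HF_CONT; columns are means, error bars SD over 3 libraries and symbols the libraries. Sele lies between 10.6 and 16.6 in HF_KO libraries and between 3.63 and 3.89 in HF_CONT libraries, whereas Plvap (335 to 445 in HF_KO libraries, 433 to 554 in HF_CONT libraries) and Icam1 overlap.

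The same comparison was fitted over all genes with another scaling in place of TMM. Each library was scaled to the mean log2 CPM of the 17 tested genes of the endothelial list. This scaling moved the median log2 fold change of all genes to −0.48, and 35% of genes then passed, 389 higher and 4422 lower, against 568 higher and 361 lower with TMM, so values under it mean a change relative to endothelial transcripts only. Sele had a log2 fold change of 2.05 ± 0.31 (SE) relative to endothelial transcripts, Selp 1.96 ± 0.30, Vcam1 1.39 ± 0.27, Vwf 1.24 ± 0.26 and Icam1 0.73 ± 0.25. These 5 of the 10 genes were called higher, where 2.83% of all genes were. Pecam1 was not called under it (0.27 ± 0.21), and 4 genes changed sign without being called under either scaling, Icam2 (−0.20), Cdh5 (−0.03), Plvap (−0.11) and Emcn (−0.18).

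**Figure D3:**
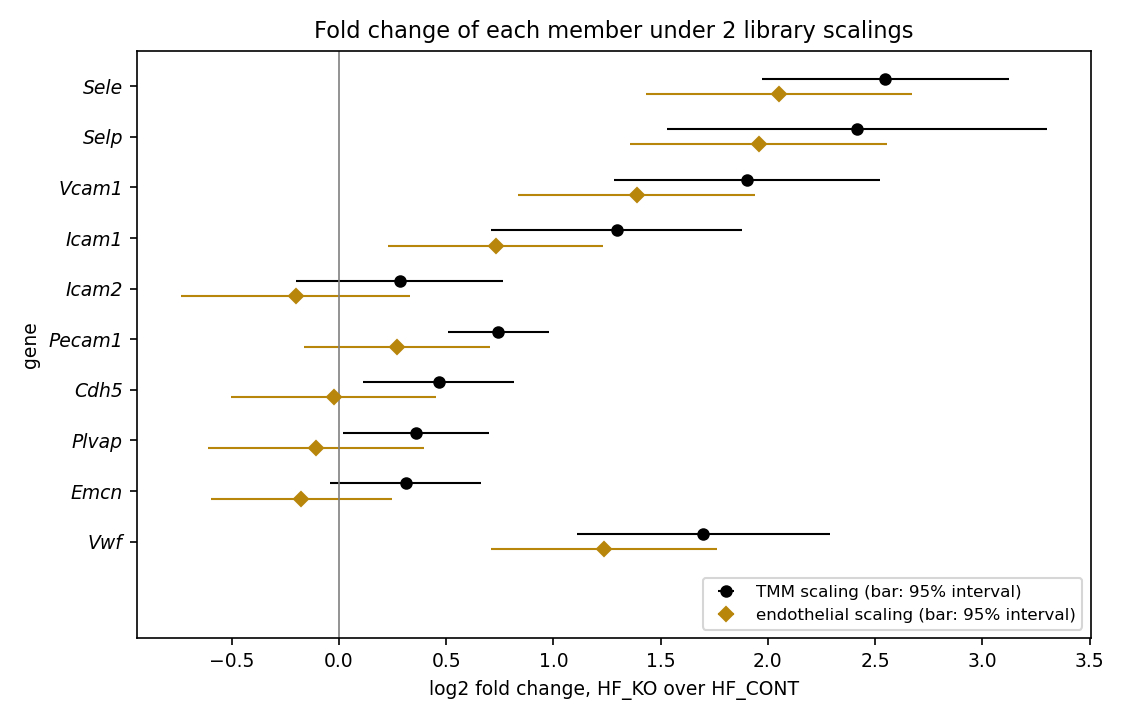
Log2 fold change of each gene, HF_KO over HF_CONT, with TMM scaling (circles) and with libraries scaled to 17 other endothelial genes (diamonds). Bars are 95% intervals. Sele, Selp, Vcam1, Icam1 and Vwf lie right of 0 under both scalings, while Icam2, Cdh5, Plvap and Emcn fall on either side of 0 depending on the scaling.

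The other genes of leukocyte traffic were followed in 5 lists with 60 tested genes, of which 10 rose and 3 fell. Of these 13 calls, 0 held without HF_CONT replicate 2, 1 without HF_KO replicate 1, 2 without HF_CONT replicate 3 and 4 without HF_KO replicate 3, and 8 and 10 held without HF_KO replicate 2 and HF_CONT replicate 1. All 13 kept their direction in each. Among 12 further adhesion and traffic receptors only Podxl, a sialomucin of the vessel surface that can carry selectin ligands, rose (0.44 ± 0.11, SE; not called when any 1 library was left out, and −0.04 with endothelial scaling), 0 fell and 11 were not called (median 0.18). The venular chemokine receptor Ackr1, named after its values were seen, did not pass at 57, 57 and 27 counts in HF_KO libraries against 5, 21 and 17 in HF_CONT libraries (log2 fold change 1.86 ± 0.49). Of 9 tested enzymes that build selectin ligands, the sialyltransferase St3gal4 rose (1.14 ± 0.28), 0 fell and 8 were not called (median 0.22). Of 9 tested genes of Weibel-Palade body cargo and release, 0 rose and 2 fell (median 0.14), among them the Rab27 effector Sytl4 (−0.84 ± 0.19), which also acts in β cell insulin secretion. The granule cargo Angpt2, named after its values were seen, had 124, 131 and 93 counts in HF_KO libraries and 141, 168 and 164 in HF_CONT libraries, and was not called (−0.29 ± 0.17), while Vwf and Selp were; that difference was not tested.

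On the leukocyte side, 4 of 12 tested ligands and integrins rose, 0 fell and 8 were not called (median 0.79). Itgb2, the β2 chain of the ICAM-1 receptors, had 141, 239 and 132 counts in HF_KO libraries and 49, 41 and 86 in HF_CONT libraries (log2 fold change 1.70 ± 0.31, SE). Itgal, the α chain of LFA-1, had 43, 114 and 39 counts in HF_KO libraries and 23, 7 and 16 in HF_CONT libraries (2.22 ± 0.56). Itgb7, a partner of α4 integrin, rose by 1.93 ± 0.37, and Cd44, a receptor on many cell types that can act as an E-selectin ligand, by 0.60 ± 0.14. The α4 chain itself, Itga4, named after its values were seen, was not called (−0.27 ± 0.25). It had 55, 79 and 60 counts in HF_KO libraries and 86, 90 and 85 in HF_CONT libraries, with overlap in CPM. For Itgb2 and Itgal the highest library was HF_KO replicate 2, as it was for Vcam1, Icam2, Pecam1 and Cdh5, while Sele, Selp, Icam1, Plvap, Emcn and Vwf were highest in HF_KO replicate 1. Of these 4 calls, 0 held without HF_CONT replicate 2. Without HF_KO replicate 1 only Itgb7 was called, and without HF_KO replicate 3 or HF_CONT replicate 3 only Itgb2.

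Genes that inflammatory cytokines induce in endothelium did not move in one direction: of 18 tested, 4 rose, 1 fell and 13 were not called, with a median of 0.03. Il6, the interleukin, had 151, 97 and 85 counts in HF_KO libraries and 37, 40 and 30 in HF_CONT libraries (log2 fold change 1.77 ± 0.28, SE). The chemokines Ccl2 (1.73 ± 0.31) and Cxcl1 (1.54 ± 0.31) and the NF-κB subunit Nfkb2 (0.83 ± 0.17) also rose. Neither these 4 calls nor that of Irf1 held without HF_KO replicate 1 or without HF_CONT replicate 2, and without HF_CONT replicate 3 only Il6 was called. The interferon-responsive factor Irf1, named as the 1 gene of this list that fell, had 1704, 1861 and 982 counts in HF_KO libraries and 2143, 3522 and 5042 in HF_CONT libraries (−1.07 ± 0.25). The NF-κB inhibitors Nfkbia (−0.58 ± 0.24) and Tnfaip3 (−0.32 ± 0.28), named after their values were seen, were not called. These genes are made by many islet cells, so the counts do not place them in endothelium.

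Markers of other cells that can carry the same molecules were measured beside these results. The 13 macrophage and myeloid genes summed to 316, 398 and 307 CPM in HF_KO libraries and 181, 185 and 187 CPM in HF_CONT libraries, and 7 rose, among them Cd68 (1.98 ± 0.22, SE), C1qc (1.10 ± 0.15), Lyz2 (1.73 ± 0.29) and Laptm5 (1.21 ± 0.20). Of the 7 calls, 2 held without HF_KO replicate 1, 2 without HF_CONT replicate 2 and 3 without HF_CONT replicate 3, and Cd68 held in each. The pan-leukocyte gene Ptprc, at 1.52 ± 0.44, was not called. The 9 fibroblast, stellate and pericyte genes summed to 434, 378 and 323 CPM in HF_KO libraries and 86.9, 172 and 318 CPM in HF_CONT libraries; 3 rose, Dcn (1.97 ± 0.22), Lum (1.95 ± 0.26) and Pdgfra (2.68 ± 0.41), and Dcn and Lum stayed called when any 1 library was left out. Macrophages and stromal cells can express Vcam1 and Icam1, and their part in the values of these genes was not tested.

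Platelets also carry Selp, Vwf, Pecam1 and Icam2, and their part in the values of these genes was not tested. The 8 platelet and megakaryocyte genes summed to 6.95, 9.54 and 6.91 CPM in HF_KO libraries and 7.54, 6.17 and 6.88 CPM in HF_CONT libraries, with 0 of 4 tested called. Gp5, named after its values were seen, had the highest level of the list in each library (88 to 103 counts in HF_KO libraries and 88 to 111 in HF_CONT libraries). The platelet chemokine Pf4 had 21, 32 and 18 counts in HF_KO libraries and 8, 15 and 11 in HF_CONT libraries (not called, 1.21 ± 0.45, SE), without overlap in CPM, and the integrin chain Itga2b 5, 33 and 14 against 21, 19 and 17. Of 5 lymphatic endothelial genes, 0 rose and Prox1 fell (−0.42 ± 0.10; called only without HF_KO replicate 2 or HF_CONT replicate 1 among the libraries left out), a factor also made by islet endocrine cells.

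The remaining lists moved with the labels in places. Lymphocyte genes summed to 7.35, 70.02 and 17.1 CPM in HF_KO libraries and 15.6, 17.3 and 9.85 CPM in HF_CONT libraries, so HF_KO replicate 2 stood apart. Of 8 tested, Cd4 rose (2.96 ± 0.72, SE; not called when any 1 library was left out). All 6 called genes of the 10 were still called without HF_KO replicate 2. The 12 acinar genes summed to between 24068 and 27321 CPM in HF_KO libraries and to 10063, 8905 and 885 CPM in HF_CONT libraries, with 0 of 11 tested called, and HF_CONT replicate 3 was low. Without HF_CONT replicate 3 there were 5 of the 10 genes called, Icam1 being the one lost. Of 6 tested duct genes, Spp1 rose (1.53 ± 0.35), and of 8 β cell genes, 3 fell, Ucn3 (−0.86 ± 0.15), Nkx6-1 (−0.65 ± 0.12) and Slc2a2 (−1.15 ± 0.24). Neither the call of Spp1 nor those of the 3 β cell genes held without HF_KO replicate 1 or without HF_CONT replicate 2. Without HF_CONT replicate 3, Ucn3 alone of these was called. The part of each of these in the results for the vessel genes was not tested.

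**Figure D4:**
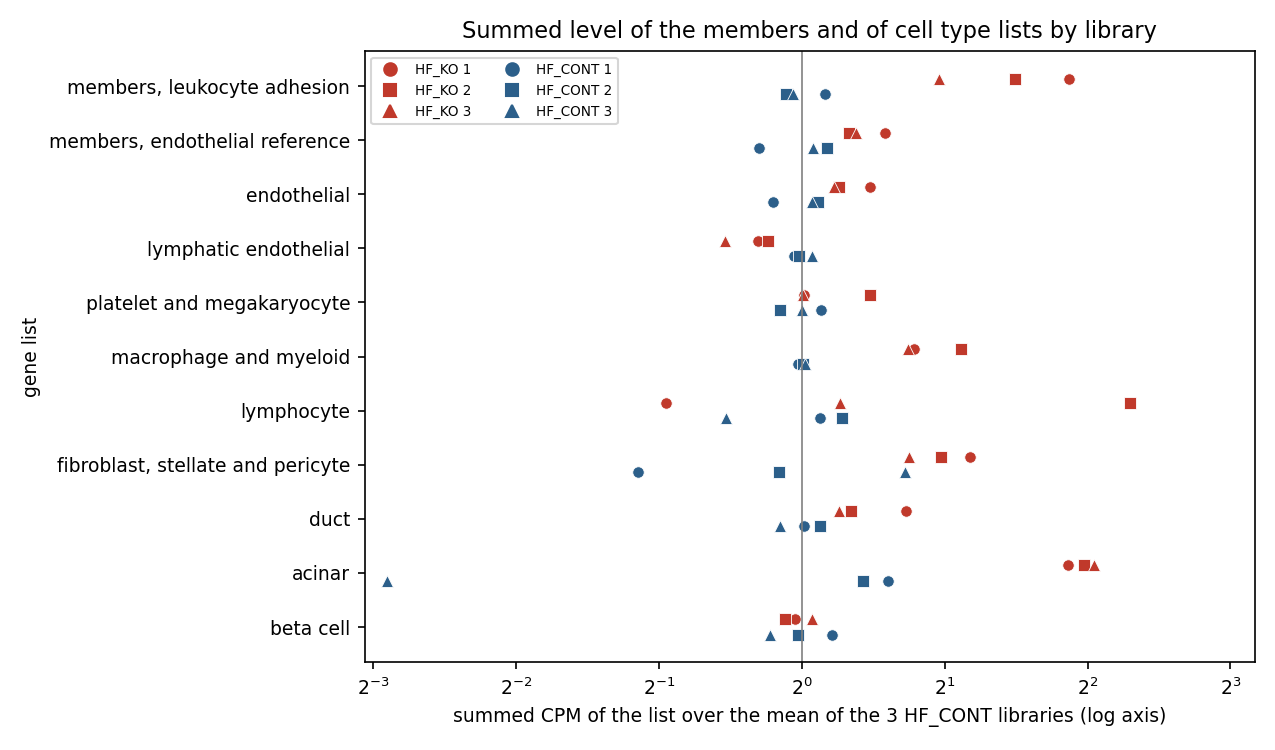
Summed CPM of the vessel genes and of 9 cell type lists in each library, divided by the mean of the 3 HF_CONT libraries, on a log axis; HF_KO libraries are drawn above HF_CONT libraries in each row. The 5 adhesion genes sum to 90.4, 69.5 and 48.1 CPM in HF_KO libraries and 27.6, 22.9 and 23.7 CPM in HF_CONT libraries. The endothelial reference, endothelial, macrophage, fibroblast, duct and acinar rows also lie to the right without overlap. Lymphatic endothelial genes lie to the left, and platelet, lymphocyte and β cell genes overlap.

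The genes most like Sele and Pecam1 over the 6 libraries were looked up among genes whose mean log2 CPM reached 2. For Sele, the 5 with the highest Pearson r in log2 CPM were Sat1 (0.993), which encodes the polyamine-acetylating enzyme, the channel subunit Lrrc8b (0.991), catalase Cat (0.990), Plp2 (0.990) and the metalloreductase Steap4 (0.990), out of 9869. For Pecam1 they were the TGF-β receptor Tgfbr2 (0.996), the anticoagulant protein S gene Pros1 (0.995), the complement protease C1s1 (0.994), Steap4 (0.994) and transferrin Trf (0.994). With 6 libraries split by label, 89 genes had an r above 0.95 with Sele and 92 with Pecam1, so the order among them carries little weight. Sat1 had 32.6, 29.3 and 28.3 CPM in HF_KO libraries and 20.4, 21.2 and 20.8 CPM in HF_CONT libraries, and all of these genes but Lrrc8b were called higher.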

How the data were processed

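The authors deposited 1 table of whole-number read counts per gene for 6 libraries, not normalized, with exon coordinates and gene length (bp) in the layout of featureCounts, per the file headers. Per the labels' protocols, 10 ng of total RNA was copied from poly-dT primers with SMART-Seq v4 chemistry, sheared and made into Ion Plus Fragment libraries. The mouse build mm10 and the tools STAR 2.4.2a, edgeR, featureCounts and Subread 1.5.0 are listed, without their roles, in the submitters' processing notes. How strand and multi-mapping reads were handled is not given in the sources used here. Reads carry no molecular identifiers in these sources, so a count is of reads and not of molecules.

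Counts were tested in R 4.3.3 with edgeR 4.0.16 (TMM, default expression filter by group, quasi-likelihood, group as the only term), with Benjamini-Hochberg adjustment over 13736 genes and a threshold of 0.05. All 10 genes passed the filter. SE is the fold change divided by the root of the F value. TPM used the deposited gene length. The members, gene lists and tests were chosen with earlier results of these data known. Named genes are the 10, up to 4 called genes with the smallest p per list, 6 defining genes (Ins1, Ins2, Pf4, Itga2b, Cd68, Ptprc) and the 5 genes most like Sele and Pecam1; others are marked, and a few genes that these rules would name are not reported here. Replicates within a label differed beyond counting noise (chi-square per degree of freedom 11.2 or more). Alternatives were RLE and upper-quartile factors, endothelial scaling, removal of acinar and hormone genes, no filter, a filter of 1 CPM in 3 libraries, DESeq2 1.42.0, limma-voom (limma 3.58.1), a replicate block and leaving out each library.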

Additional observations from a re-analysis of the deposited data

How the results depend on the processing

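In all, 929 genes were called, against 4811 with endothelial scaling, 1413 with no expression filter and 1702 with DESeq2, and 64 to 968 when each library was left out. Of the 10 genes 6 were called, against 5 with endothelial scaling and 1 to 6 when each library was left out. RLE and upper-quartile factors, removal of acinar and hormone genes, the 1 CPM filter and limma-voom left that count at 6. Libraries with the same replicate number were not alike once the mean of each group was removed (correlations −0.04 to 0.06). With 3 libraries a group this cannot settle whether they were paired. A replicate block gave 826 genes and the same 6. The log2 difference of Sele per endothelial transcript was 1.82 to 2.19 over its alternatives (1.95 to 2.19 when each library was left out), and that of the summed endothelial list 0.23 to 0.48 (0.23 to 0.39).

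Signs reversed with endothelial scaling for Icam2 (−0.20), Cdh5 (−0.025), Plvap (−0.11), Emcn (−0.18), Podxl (−0.040), Ins1 (−0.41) and Itga2b (−0.42), none of them called under it. Itga2b, with few counts, was −0.35 with limma-voom, −0.19 with the replicate block and −0.83 to 0.48 when each library was left out. Ins1 ran from −0.021 to 0.23 and Ins2 from −0.19 to 0.039 when each library was left out. The cause of these changes was not tested. With 3 libraries a group, 0.1 is the smallest p an exact permutation test can give. The 28 to 34 counts of Sele in HF_CONT libraries carry sizeable counting error.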
